A study of Mus musculus with 3 samples.

Results

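The Hes and Hey repressors and Rbpj were described in green fluorescent cells sorted from the kidneys of Meis1-EGFP mouse fetuses. Hes1, Hes2, Hes3, Hes5, Hes6, Hes7, Hey1, Hey2, Heyl and Rbpj were chosen as the Notch target repressors and the DNA-binding partner of Notch, and every probe set annotated with 1 of these symbols alone was taken. That gave 10 genes of 18193 and 16 probe sets of 45037 per array. The series holds 1 group of 3 arrays (replicates 1, 2 and 3), each from a separate pool of about 20 CD-1 kidneys at E15.5 (embryonic day, Theiler stage 23, sex recorded as unknown) that carry the transgene Tg(Meis1-EGFP)FO156Gsat. This transgene makes green fluorescent protein under control of Meis1, so the sort collects whatever cells have the reporter on, and the labels call them both peripheral blastema and nephrogenic interstitium. Reporter-negative cells and whole kidney were not analysed here, so no value below says whether a gene is enriched in the sorted cells. Nothing in the labels ties the pools to different litters, and the p-values below therefore cover only the spread between these arrays, which may be technical.

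When a Notch receptor meets its ligand, its intracellular part is cut free, enters the nucleus and joins Rbpj, which otherwise holds target genes silent with corepressors. The Hes and Hey genes are classical targets of this complex and encode basic helix-loop-helix repressors of other genes. In the fetal kidney Notch signalling is known for patterning the early nephron, and mouse work has shown that Rbpj in Foxd1-lineage stroma is needed for mesangial and vascular mural cells.

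Markers of the labelled cell type were looked at first. All 12 measured markers of nephrogenic interstitium, Foxd1 and Meis1 among them, were above background, against 57.3% of all genes. Meis1 drives the reporter, and most markers of some other cell types were above background too (below). The count therefore cannot tell the labelled cell type from others. Each array's background level was the 95th percentile of 72 chemosensory receptor genes, at signals of 135, 185 and 168 in replicates 1, 2 and 3. A gene was called above background at an adjusted p under 0.05 in a limma test of log2 signal minus that level.

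RefSeq (GRCm38.p6) promoter windows of 300 bases, 250 before the start site and 50 after it, were at hand for 5 members, Hes5, Hes6, Hes7, Hey2 and Rbpj. None was used for Hes1, Hes2, Hes3, Hey1 and Heyl. The windows are shown because Rbpj binds the letters TGGGAA, given in capitals on either strand, so that the members' own promoters can be read beside their signals. The windows are chr4:154960673-154960972 (plus strand) for Hes5, chr10:30842734-30843033 (minus strand) for Hey2, chr5:53590096-53590395 (plus strand) for Rbpj and chr1:91413173-91413472 (minus strand) for Hes6.
Hes5: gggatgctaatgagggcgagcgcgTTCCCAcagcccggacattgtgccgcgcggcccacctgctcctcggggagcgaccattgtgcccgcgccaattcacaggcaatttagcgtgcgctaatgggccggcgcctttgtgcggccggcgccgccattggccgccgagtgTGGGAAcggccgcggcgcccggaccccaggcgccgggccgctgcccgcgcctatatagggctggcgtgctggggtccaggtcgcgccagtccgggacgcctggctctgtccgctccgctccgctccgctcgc
Hey2: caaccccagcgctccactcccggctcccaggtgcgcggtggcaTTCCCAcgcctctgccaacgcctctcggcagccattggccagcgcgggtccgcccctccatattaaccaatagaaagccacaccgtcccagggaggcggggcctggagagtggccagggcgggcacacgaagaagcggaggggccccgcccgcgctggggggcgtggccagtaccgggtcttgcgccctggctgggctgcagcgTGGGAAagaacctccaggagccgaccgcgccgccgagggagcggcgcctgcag
Rbpj: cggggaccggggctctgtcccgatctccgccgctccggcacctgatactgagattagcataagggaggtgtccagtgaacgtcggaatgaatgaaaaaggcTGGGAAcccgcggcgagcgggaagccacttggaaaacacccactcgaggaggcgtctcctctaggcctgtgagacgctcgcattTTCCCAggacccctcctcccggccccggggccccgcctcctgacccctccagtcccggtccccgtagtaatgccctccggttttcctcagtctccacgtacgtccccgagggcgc
Hes6: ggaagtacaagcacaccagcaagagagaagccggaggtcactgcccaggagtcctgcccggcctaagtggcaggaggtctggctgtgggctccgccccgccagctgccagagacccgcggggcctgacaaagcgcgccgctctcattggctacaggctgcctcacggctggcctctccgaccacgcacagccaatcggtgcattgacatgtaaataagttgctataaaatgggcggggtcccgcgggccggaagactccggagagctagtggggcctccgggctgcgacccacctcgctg

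The window of Hes5 held 2 matches to TGGGAA, which began 226 and 82 bases before the start site on opposite strands, and both extended to TGTGGGAA. The Hey2 window also held 2, beginning 207 and 3 bases before the start site on opposite strands, and both extended to CGTGGGAA. That longer form was present in 0.734% of 32851 windows and TGTGGGAA in 1.86%, while 25.6% held the core TGGGAA. Windows with 2 or more copies numbered 15 for TGTGGGAA and 4 for CGTGGGAA. The Rbpj window shown held 2 core matches, of which a second, overlapping Rbpj window held the later one, and the Hes7 window held 1, which extended to TGTGGGAA. Neither of the Hes6 windows held the letters. These are matches of letters, with no measurement of binding.

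The sorted cells showed 5 of 10 members above background: Rbpj, Hes1, Hes6, Hey1 and Heyl. Hes2, Hes3, Hes5, Hes7 and Hey2 were not called. Across all genes 57.3% were above background, so the members' share was close to that of genes at large. The median distance from background was 1.24 log2 units for the members and 1.52 for all genes. Of the 16 probe sets 8 were above background, against 42% of all probe sets.

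**Figure D1:**
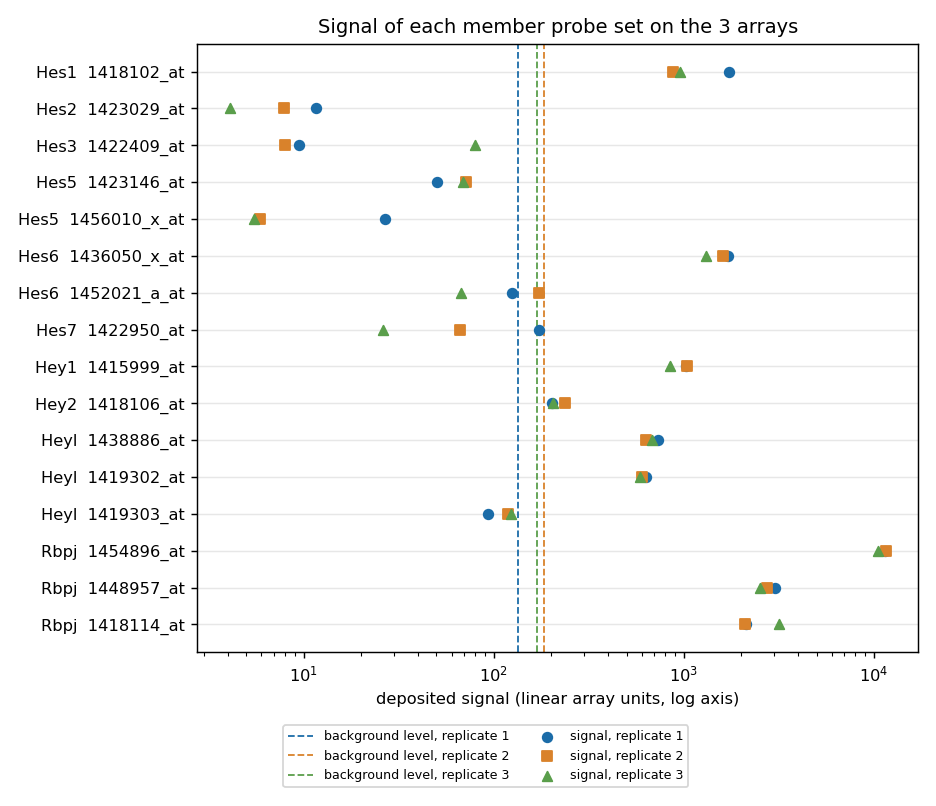
Deposited signal (log axis) of each of the 16 member probe sets on the 3 arrays, with each array's background level as a dashed line of the same colour. All 3 Rbpj probe sets lie above the levels on every array, while Hes6 and Heyl each have probe sets on both sides of them.

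Rbpj, the DNA-binding factor that Notch turns from repressor into activator, had signals of 11439, 11546 and 10574 in replicates 1, 2 and 3 on the probe set 1454896_at. The mean distance above background was 6.11 ± 0.22 log2 units (SE, n = 3), or 69.3-fold, with a limma adjusted p of 8.99e-07. The arrays differed by no more than 1.09-fold and none came near the background level. A second probe set, 1448957_at, read 3024, 2726 and 2505, and the third, 1418114_at, read 2135, 2088 and 3159. Rbpj was thus called by all 3 of its probe sets, and the third had its highest value in replicate 3, where the other 2 had their lowest.

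Hes1, a widespread Notch target and a repressor of differentiation genes, had signals of 1731, 882 and 958 in replicates 1, 2 and 3. Its only probe set exceeded the background level by 2.81 ± 0.32 log2 units (SE, n = 3), or 7.04-fold, with a limma adjusted p of 0.000155. All arrays were above the level and no chemosensory receptor gene was brighter on any of them, but replicate 1 stood 1.96-fold above replicate 2. Without replicate 1 the distance was 2.38 log2 units and the call held (limma adjusted p = 0.00138).

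Hes6 is unusual in the family, since it is not a direct Notch target in the nervous system and counteracts Hes1 there. Its brighter probe set, 1436050_x_at, had signals of 1712, 1601 and 1315 and exceeded the background level by 3.25 ± 0.23 log2 units (SE, n = 3), with a limma adjusted p of 1.43e-05. The other, 1452021_a_at, had signals of 125, 174 and 67.0, below the level of its array each time, and lay at -0.51 ± 0.33. The Hes6 call therefore rests on 1 probe set, of the type that the array maker marks with _x_at because its probes may also bind other transcripts. Without probe sets of that kind Hes6 was not above background (-0.51, limma adjusted p = 1.00), and with the mean over probe sets it lay at 1.57. For such means, here and below, the background level was recomputed from means as well. Those distances are therefore not on the main level: Hes1, with 1 probe set, moved from 2.81 to 3.01.

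Hey1, a Notch target best known from vessels and heart, had signals of 1025, 1035 and 846. This put it 2.58 ± 0.22 log2 units over the background level (SE, n = 3), or 5.98-fold, with a limma adjusted p of 3.64e-05. The 3 arrays agreed within 1.22-fold, all well clear of the background level. Heyl, a relative found in vascular smooth muscle and pericytes, had signals of 729, 629 and 683 on the probe set 1438886_at and of 634, 606 and 590.1 on 1419302_at. The brighter of these exceeded the background level by 2.07 ± 0.23 log2 units (SE, n = 3), with a limma adjusted p of 0.000123. The remaining probe set, 1419303_at, had 93.2, 119 and 124, below the level on each array, at a distance of -0.54 ± 0.21. Heyl thus had 2 of 3 probe sets called, and with the mean over probe sets, against the level recomputed for that setting, it lay at 1.35. Such disagreement was common, since 4478 of 6732 genes with several probe sets and at least 1 called (66.5%) also had 1 that was not.

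Hey2, which acts with Hey1 in the developing heart and arteries, was at the edge of the background. Its signals were 204, 237 and 205 in replicates 1, 2 and 3, each above that array's level, and the distance was 0.41 ± 0.21 log2 units (SE, n = 3; limma adjusted p = 0.0796). Of the 72 chemosensory receptor genes 0, 2 and 3 were brighter than Hey2 on the 3 arrays. It was called when being above the level on all 3 arrays was the only condition, a rule that 59.2% of genes met. The fit also called it with a common background level (0.41, limma adjusted p = 0.0192), with quantile normalization (0.41, adjusted p = 0.0455), with the dimmest 25% of genes left out (0.41, adjusted p = 0.0408) and at the 90th percentile (0.76, adjusted p = 0.00927). It was called as well without _x_at, _s_at and _a_at probe sets (0.49) and with the mean over probe sets (0.61). Hey2 has 1 probe set, which neither setting changes, so these 2 distances differ from 0.41 only through the recomputed background level. It was not called with the background taken from all chemosensory probe sets (0.51, adjusted p = 0.0665) or without _x_at and _s_at probe sets only (0.41, adjusted p = 0.0871). Nor was it called without replicate 1 (0.32, adjusted p = 0.103), replicate 2 (0.44, adjusted p = 0.188) or replicate 3 (0.48, adjusted p = 0.266), and at the 99th percentile it lay at -0.074.

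**Figure D2:**
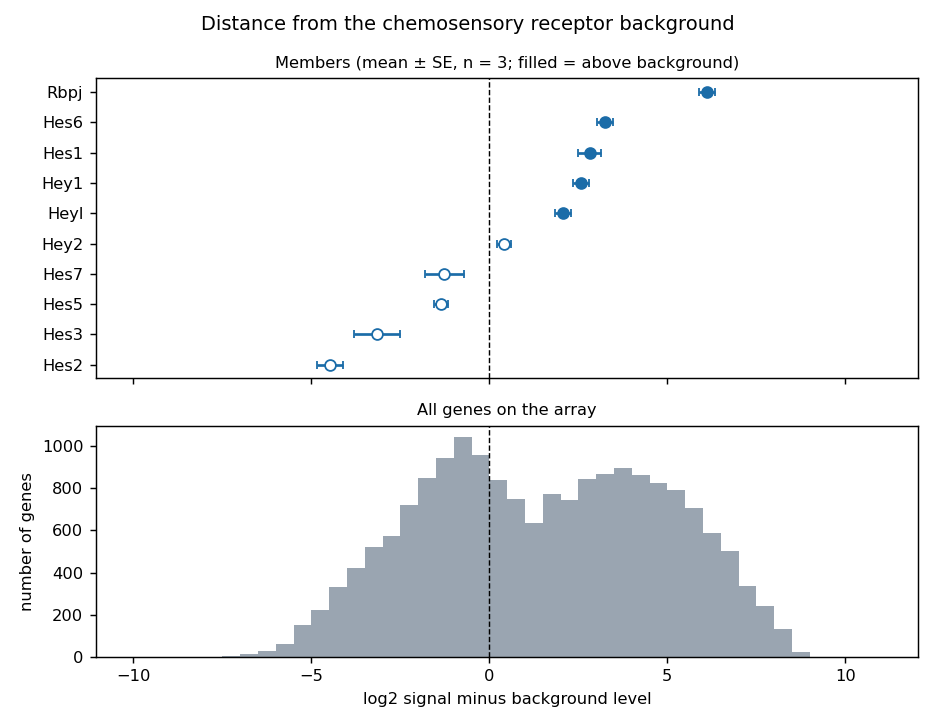
Distance of each member from the background level (mean ± SE over 3 arrays, filled where above background) over a histogram of the same distance for all 18193 genes. Rbpj lies at 6.11, Hes6, Hes1, Hey1 and Heyl between 2.07 and 3.25, Hey2 just right of 0, and the other Hes genes left of it.

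Of the Hes genes tied to the nervous system, Hes5, a main Notch target of neural progenitors, had signals of 50.3, 71.2 and 68.6 on 1423146_at and of 26.9, 5.87 and 5.45 on 1456010_x_at. Its brighter probe set lay at -1.37 ± 0.20 log2 units (SE, n = 3) and both were below the level on every array. Between 25 and 27 of the 72 chemosensory receptor genes were brighter than Hes5 on each array, which places it inside the range of genes used as background. Hes3, which is known from the neural tube and brain stem, had signals of 9.40, 7.94 and 79.7 and lay at -3.15 ± 0.65. Its replicate 3 value was 10.0-fold that of replicate 2, yet still below the background level, so this spread is among values that cannot be told from background.

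Hes7, the oscillating repressor of the segmentation clock in presomitic mesoderm, had signals of 174, 66.5 and 26.2. Replicate 1 was above its level by 0.37 log2 units and the other arrays were below theirs, for a mean of -1.26 ± 0.55 (SE, n = 3). Only 1 chemosensory receptor gene was brighter than Hes7 in replicate 1, against 30 in replicate 2 and 53 in replicate 3. Hes2, the least studied of the group, had signals of 11.6, 7.91 and 4.10 and lay at -4.48 ± 0.37. For Hes2, Hes3, Hes5 and Hes7 the limma adjusted p was 1.00. A probe set that stays in the background does not show that the transcript was absent.

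The members differed in how well the pools agreed. Array medians were 143, 162 and 187, so centring on the median moves replicate 3 against replicate 1 by 0.39 log2 units relative to the deposited scale, and both scales are given. Hes1 had an SD of 0.69 log2 units over the centred arrays, against a median of 0.30 for genes of similar signal, and stood at the 99.2 percentile of them. On the deposited scale its SD was 0.53, against 0.18 for genes of similar signal. Hes7 stood at the 95.6 percentile with centring and at 92.6 without. Rbpj moved with the scale: its SD was 0.25 centred, at the 64.5 percentile, and 0.070 as deposited, at the 21.3 percentile. In all, 7 of 10 members had an SD above the median of similar genes after centring and 4 did on the deposited scale. The arrays are replicates of 1 group, so these are descriptions with no test.

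**Figure D3:**
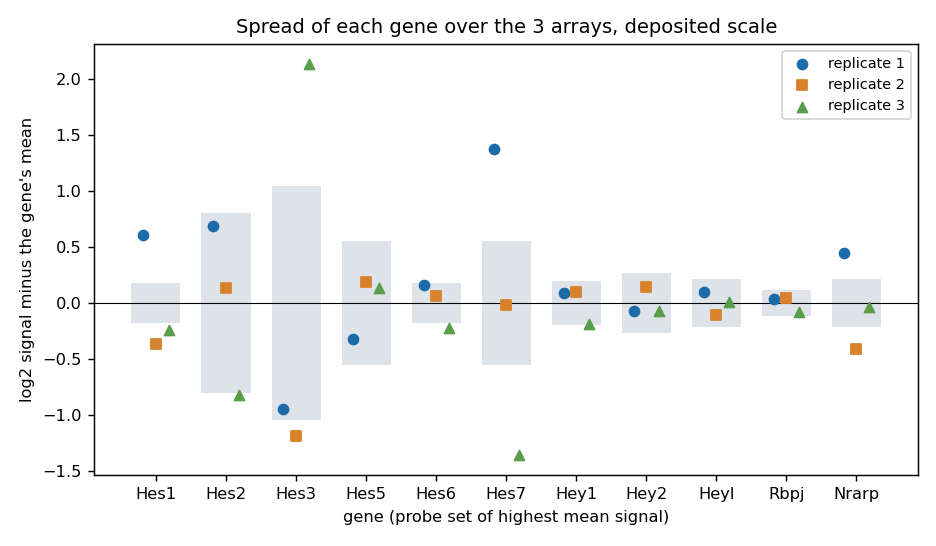
Deposited log2 signal of each member, and of the Notch target Nrarp, on each array minus the gene's mean. The grey box spans the median SD of genes of similar signal on either side of 0; replicate 1 of Hes1 lies 0.61 above the gene's mean, outside its box, whereas the points of Rbpj, Hey1, Hey2 and Heyl lie within theirs.

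Nrarp, a direct Notch target that feeds back on the receptor's intracellular part, had signals of 696, 386 and 499. It was thus highest in replicate 1 and lowest in replicate 2 on the deposited scale, as Hes1 was. After centring on the array medians Hes1 deviated by 0.80, -0.36 and -0.44 log2 units in replicates 1, 2 and 3. Hes1 was then lowest in replicate 3. The distance of Nrarp was 1.67 ± 0.30 log2 units (SE, n = 3), with a limma adjusted p of 0.00142. Nrarp is 1 of 11 other Notch targets, whose summed deposited signal was 60036, 64716 and 58348, highest in replicate 2. Divided by the array medians these sums were 421, 399 and 313, highest in replicate 1. On the deposited scale Hey1 was highest in replicate 2 and the Heyl values differed by at most 1.16-fold. With centring on the array medians Hey1 deviated from its mean by 0.28, 0.11 and -0.39 log2 units in replicates 1, 2 and 3, so it was then highest in replicate 1, as Hes1 was. Among marker lists, the summed deposited signal was highest in replicate 1 for mural and renin cells (32588, 30474 and 25884), ureteric bud (6097, 4805 and 5925), podocytes (7113, 5712 and 6574) and early nephron (23427, 20999 and 20681). It was lowest there for interstitium (215770, 235555 and 236709) and endothelium (4171, 4321 and 4554), but this order turned with the scale. Divided by the array medians, the sums were 1512, 1454 and 1268 for interstitium and 29.2, 26.7 and 24.4 for endothelium, both highest in replicate 1, as were those of all other marker lists except blood (4.41, 4.47 and 3.19). On the deposited scale the highest array of the 9 marker lists was 1.09 to 1.27 times the lowest, and no signal of any marker was 0. Their part in the Hes1 values was not tested.

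Since Hey1, Hey2 and Heyl are also made by vessels, markers of those cells stand beside them. Of 9 measured mural and renin cell markers 8 were above background, with Pdgfrb at 5.99 ± 0.23, Rgs5 at 2.93 ± 0.28 and Cspg4 at 4.12 ± 0.21 log2 units (SE, n = 3). Of the contractile genes among these markers Acta2 was called, while Tagln lay at -0.40 ± 0.28 and was not. Of 12 endothelial markers 7 (58.3%) were above, which is close to the 57.3% of all genes. Cdh5 lay at 1.31 ± 0.23, Kdr at 1.07 ± 0.21 and Tek at 2.86 ± 0.20, against Pecam1 at -1.64 ± 0.71 and Tie1 at -3.72 ± 0.56. The part of these cells in the Hey signals was not tested. In a sorted pool, fewer cells of a type and less RNA per cell cannot be told apart. Every marker count here is to be read beside the 57.3% of all genes above background. The mural list shares Notch3 and Acta2 with the Notch lists, and the ureteric bud list shares Gata3. Early nephron markers, which share Jag1, Dll1 and Ccnd1 with them, all 3 above background, were above in 4 of 9 cases, cap mesenchyme in 8 of 10, ureteric bud in 4 of 10, podocyte in 4 of 6, neural in 3 of 5 and blood in 1 of 5.

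Upstream of the repressors, 7 of 9 Notch receptors and ligands were above background, against 57.3% of all genes. The list's median distance was 1.10 log2 units, below the 1.52 of all genes. Its count was 5 of 9 both at the 99th percentile and with the mean over probe sets. In those settings 52.9% and 50.4% of all genes were above background. The receptor Notch1 had signals of 4085, 4345 and 5480 at a distance of 4.83 ± 0.21 log2 units (SE, n = 3). Notch2 had 7522, 6040 and 7028 (5.41 ± 0.24), and Notch3, the receptor of mural cells, 3198, 3278 and 3153 (4.31 ± 0.21). Notch1, Notch2 and Notch3 were thus clear of background on every array, but Notch3 rests on a probe set of the kind that may bind other transcripts and lay at -0.56 without such probe sets. With the mean over probe sets the 3 receptors lay at 2.79, 3.01 and 2.08. Dll3, a divergent ligand of the somites, lay at -0.40 ± 0.20 and the endothelial ligand Dll4 at -0.15 ± 0.22.

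Of 23 genes that process, modify or traffic Notch proteins 19 were above background. The sheddases Adam10 and Adam17 lay at 6.72 ± 0.20 and 4.58 ± 0.22 log2 units and the gamma-secretase subunit Aph1a at 3.80 ± 0.24 (SE, n = 3). Its partners Psen2 and Ncstn lay at 0.34 ± 0.22 and 0.46 ± 0.26 and were not called. With the mean over probe sets Adam10, Adam17 and Aph1a lay at 2.62, 2.82 and 2.28. Aph1a lay at 1.66 without _x_at and _s_at probe sets and at 0.86 without _a_at as well. Of 20 cofactors of Rbpj 16 were above, with the coactivator Maml1 at 5.15 ± 0.22, Snw1 at 5.80 ± 0.25 and the acetyltransferase Ep300 at 3.97 ± 0.22. Maml1 rests on an _s_at probe set and lay at 1.55 without probe sets of that kind and _x_at ones, while with the mean over probe sets Maml1 lay at 1.72 and Snw1 at 2.36. Maml2, a relative of Maml1, lay at -4.52 ± 0.46 and the corepressor Spen at 0.24 ± 0.21.

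Corepressors and dimer partners of the Hes and Hey proteins were above background in 13 of 16 cases. The Groucho family corepressors Tle1, Tle2 and Tle3 lay at 4.74 ± 0.22, 2.37 ± 0.21 and 6.17 ± 0.20 log2 units (SE, n = 3), while the short family member Tle5 lay at 0.40 ± 0.20 and Runx1 at 0.04 ± 0.22. The mean over its probe sets put Tle3 at 0.64 (limma adjusted p = 0.0219). Other genes reported as Notch targets were above in 9 of 11 cases, with Nrarp as given, Myc at 2.61 ± 0.24 and the cyclin Ccnd1 at 6.79 ± 0.22, against Gata3 at 0.10 ± 0.36 and Sox9 at 0.36 ± 0.22. That count was 5 when a gene took the mean of its probe sets, which put Ccnd1 at 4.40. Many of these genes also answer to other signals.

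None of 8 measured proneural genes, which Hes factors repress in neural tissue, was above background. Neurog1 had signals of 60.1, 81.7 and 69.0 and lay at -1.21 ± 0.20 log2 units, and Neurog2 had 15.3, 72.6 and 30.7 and lay at -2.31 ± 0.36 (SE, n = 3). The highest of the 8 lay at -0.01, so no adjusted or unadjusted limma p was under 0.05 in that list. Segmentation clock genes, among which Hes7 works, were above in 3 of 9 cases: Nrarp, Mesp2 at 0.62 ± 0.20 and the Wnt feedback gene Nkd1 at 3.34 ± 0.22. Lfng (0.33 ± 0.21) and Dll3 were not called. Mesp2 lost its call without replicate 2 (0.60, limma adjusted p = 0.0847), without replicate 3 (0.67, adjusted p = 0.133) and at the 99th percentile (0.14), and Nkd1 lost it with the mean over probe sets (0.53, adjusted p = 0.0856).

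Together the pathway lists held 91 measured genes besides the members, of which 64 (70.3%) were above background, with a median distance of 2.68 log2 units, against 57.3% and 1.52 for all genes. The members had 5 of 10 above background and a median of 1.24. The lists were picked for known roles, and none was tested as a set.

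**Figure D4:**
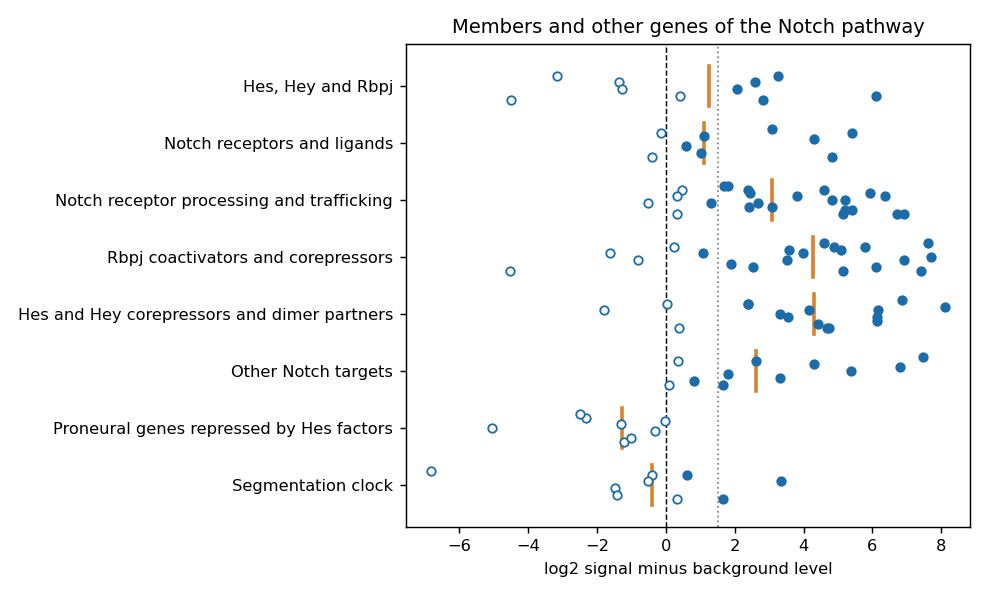
Distance from the background level for the members and for each Notch pathway list, 1 point per gene (filled where above background). Orange bars mark each list's median, the dashed line the background level and the dotted line the median of all genes at 1.52; no proneural gene is filled.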

How the data were processed

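Total RNA of 3 sorted pools went through 2 rounds of amplification and a biotin label before hybridisation to Affymetrix arrays, per the labels' protocols. The authors deposited linear array intensity values, with 1 value for each probe set and array. GCOS is named in the submitters' processing notes, while its version, signal algorithm and scaling are, in the sources used here, not given. The mean over probe sets, trimmed by 2% at each end, was 1500.01 on every array.

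Log2 was taken with no pseudocount, and 64 control probe sets were left out. A gene took its probe set of highest mean log2 signal among those with 1 symbol (34945 probe sets; platform annotation; 932 had several symbols and 9160 none). The distance from the background level was tested above 0, one-sided, with limma 3.58.1 in R 4.3.3 (lmFit and eBayes, prior df 3.88 for genes and 2.96 for probe sets), with Benjamini-Hochberg adjustment over all 18193 genes or 45037 probe sets and a threshold of 0.05. Each SE and p also carries the spread of the levels between arrays. A sign-flip permutation test of 3 arrays cannot go below p = 0.125. Levels of different genes were not ranked, since probe sets differ in affinity. Of 97 pathway genes 6 had no probe set with a single symbol and were not analysed here. All 10 members matched the RefSeq gene table by Entrez ID. The fit was tested on simulated data.

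The members and lists were chosen with earlier results of these data known. All members are named, with the first 3 called and the first 2 not called of each pathway list and of the mural and endothelial markers. The other marker lists are given as counts, and SDs were compared within 20 bins of mean signal.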

Additional observations from a re-analysis of the deposited data

How the results depend on the processing

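The values above were set against 12 other settings and 1 chosen after seeing the data, which left out _x_at and _s_at probe sets only. The number of members above background ran between 4 of 10 and 6 of 10, with 5 of 9 measured without _x_at, _s_at and _a_at probe sets and 6 of 6 without the dimmest 25% of genes. The share of all genes was 54.7% and 78.3% in the last 2 of these settings, and the second also removed dim members. Over all settings it ran between 50.4% (mean over probe sets) and 78.3%. Member probe sets above background ran between 7 and 9, of 16 or of the 13 or 14 that those filters left. Leaving out replicate 1, 2 or 3 left 5 members and 8 probe sets above background each time, and 63, 63 and 61 of the 91 other pathway genes. Over all settings that count ran between 54 (of 83 measured, without _x_at, _s_at and _a_at probe sets) and 70 of 91. It was 66 of 80 without the dimmest genes, where 78.3% of all genes were above background. The count of other Notch targets was 5 both without _x_at, _s_at and _a_at probe sets and with the mean over probe sets, against 9. The number of members with an SD above that of similar genes was 4 with no centring of the arrays, and 5 after quantile normalization, both chosen after seeing the data, against 7.

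Values that changed sign were mostly near 0. At the 99th percentile Hey2 lay at -0.074 (gene and probe set 1418106_at), Psen2 at -0.15, Ncstn at -0.024, Spen at -0.24, Tle5 at -0.091, Runx1 at -0.45, Gata3 at -0.39, Sox9 at -0.13 and Lfng at -0.15. At the 90th percentile Dll4 lay at 0.20. With the mean over probe sets Ncstn lay at -1.95, Runx1 at -1.41, Sox9 at -1.17 and Lfng at -1.92. Without _x_at and _s_at probe sets Hes6 lay at -0.51 and Notch3 at -0.56, and Notch3 at -0.48 without _a_at as well. With replicate 1, 2 or 3 left out, Dll4 ran between -0.29 and 0.0068 (above 0 without replicate 2), Runx1 between -0.12 and 0.18 (below 0 without replicate 1) and Gata3 between -0.26 and 0.59 (below 0 without replicate 1 or 3). Hes6 and Notch3 changed because their brighter probe set was removed. At the 90th and 99th percentiles only the background level moved, by the same mean amount for every gene. For the other settings the cause was not tested. Psen2, Ncstn, Spen, Tle5, Sox9 and Lfng were called at the 90th percentile. Without the dimmest genes, and without replicate 3, eBayes gave all genes 1 shared variance. No paired analysis was possible because the series holds 1 group. With 3 arrays and signals this close to the level, Hey2 cannot be placed on either side of background.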
